A study of Mus musculus with 6 samples.

Results

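Platelets respond to soluble agonists through a small set of surface receptors, and the 10 genes described here encode those for thrombin (F2r, F2rl2, F2rl3), ADP and ATP (P2ry1, P2ry12, P2rx1), thromboxane and prostaglandins (Tbxa2r, Ptger3, Ptgir) and adrenaline (Adra2a). They were picked by symbol as receptors for these agonists, and all 10 were found among the 14975 genes of the deposited table. Platelet RNA was sequenced from 3 control libraries and 3 pre-AML libraries, numbered as in the sample labels, which call the genotypes WT and AML. Where 3 values of a group are given, they follow these numbers. The strain background was C57BL/6, the study used female mice 8 to 12 weeks old with C57BL/6 or CD45.1 recipients, and both groups were irradiated. Control mice then received normal bone marrow. Pre-AML mice received hematopoietic cells with the oncogene MLL-AF9, carried by a retrovirus with a GFP reporter. These were either transduced Lin- c-kit+ Sca-1+ cells, given to lethally irradiated primary recipients, or GFP+ cells of such mice, given to sublethally irradiated secondary recipients, and pre-AML stands for 1 week after transplantation. The methods do not say which recipients gave the RNA, and no selection of platelets for GFP is described, so platelets made by the recipient's own cells may be included. The labels describe pools of 3 to 4 mice per library and 2 replicates per group, whereas the methods state 3 independent mice, so p-values here measure the spread between these libraries. In bulk RNA, fewer platelets with a transcript and less of it per platelet cannot be told apart.

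Thrombin cuts protease-activated receptors (PARs), which then signal through Gq and G13. ADP acts on P2Y1, which couples to Gq and calcium release, and on P2Y12, which couples to Gi and lowers cAMP, while ATP opens the cation channel P2X1. Thromboxane A2 acts on the TP receptor, prostaglandin E2 on EP3 and adrenaline on the alpha2A receptor, and all of these favour activation. Prostacyclin acts on the IP receptor, raises cAMP and restrains the platelet. Human platelets respond to thrombin through PAR1 and PAR4, whereas in mouse platelets PAR3 serves as a cofactor for the cleavage of PAR4 and PAR1 is not known to take part.

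The bases before the annotated start are shown for the 3 receptors with the highest levels and for F2rl3, the signaling thrombin receptor of mouse platelets, because the levels of these genes are the main subject below. Each run holds the 250 bases before the RefSeq start on GRCm38.p6, 5′ to 3′ on the strand of the gene. P2ry12 is shown from the minus strand (chr3:59262986-59263235), and the others from the plus strand, P2rx1 from chr11:72998895-72999144, F2rl2 from chr13:95696670-95696919 and F2rl3 from chr8:72761409-72761658. Capitals mark matches on either strand to AGATAA, the letters of a site for GATA factors, which drive megakaryocyte genes. They also mark TGTGGT for RUNX factors, CCGGAA for ETS factors and TATAAA, as near the start of some genes. No match overlapped another.
P2ry12: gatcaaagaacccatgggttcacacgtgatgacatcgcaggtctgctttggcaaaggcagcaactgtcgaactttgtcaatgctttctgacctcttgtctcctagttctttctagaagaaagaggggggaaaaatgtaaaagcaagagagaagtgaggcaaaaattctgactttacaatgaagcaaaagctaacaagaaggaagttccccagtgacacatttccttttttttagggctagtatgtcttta
P2rx1: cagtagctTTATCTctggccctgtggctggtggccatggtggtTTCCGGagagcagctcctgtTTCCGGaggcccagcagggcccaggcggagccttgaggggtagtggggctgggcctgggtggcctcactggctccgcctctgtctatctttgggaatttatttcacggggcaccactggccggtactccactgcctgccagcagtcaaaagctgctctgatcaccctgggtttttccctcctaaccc
F2rl2: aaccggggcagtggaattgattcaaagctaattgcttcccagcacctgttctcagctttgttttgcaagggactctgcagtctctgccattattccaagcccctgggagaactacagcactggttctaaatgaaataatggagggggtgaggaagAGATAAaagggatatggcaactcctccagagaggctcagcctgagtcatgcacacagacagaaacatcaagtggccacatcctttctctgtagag
F2rl3: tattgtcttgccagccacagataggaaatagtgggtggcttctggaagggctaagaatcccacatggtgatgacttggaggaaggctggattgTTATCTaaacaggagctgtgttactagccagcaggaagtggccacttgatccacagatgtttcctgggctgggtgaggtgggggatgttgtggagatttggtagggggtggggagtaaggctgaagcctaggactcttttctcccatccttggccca
AGATAA lay 95 to 90 bases before the start of F2rl2, and its reverse complement TTATCT 157 to 152 bases before that of F2rl3 and 242 to 237 bases before that of P2rx1. P2rx1 also held CCGGAA in reverse complement in 2 places. No match was found in these bases of P2ry12. Of the 32851 promoter windows in the RefSeq table, AGATAA is in 9.99%, TGTGGT in 14.05%, CCGGAA in 12.0% and TATAAA in 12.4%. All 10 receptors were matched to the table by symbol and have 11 windows, since Tbxa2r has 2 starts. In the other 7 windows TGTGGT and CCGGAA matched for F2r and TATAAA for Adra2a, 29 to 24 bases before its start. The files do not show which start platelets use, and the matches describe letters only.

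Depth and make-up of the libraries bear on all levels. FPKM gives reads per kilobase of gene, divided by a library size. Whole reads were obtained for 14962 of the 14975 genes in all 6 libraries, mostly from the steps between the values, within 0.01 reads. For genes above 0 in 1 library alone the reads were rounded from the annotated gene length. That length also set the multiple for some low genes. The whole reads summed to 12256072 to 15334953 in 5 libraries and to 18026206 in pre-AML 3. The size used as divisor was 0.956 to 0.984 times these reads in 5 libraries but 1.29 times in pre-AML 3, where a gene with an equal share of the reads is therefore listed lower. The 10 platelet markers, led by Pf4 and Ppbp, summed to 89916 to 113954 FPKM in control, beside 90975, 92338 and 61391 FPKM among the pre-AML libraries. RNA of leukocytes stood out in pre-AML 3, where 12 monocyte and macrophage markers (without Lyz2, which had 2333 to 3093 FPKM over all libraries) summed to 453 FPKM against 0.301 to 1.23 FPKM in control, and 7 B cell markers to 227 FPKM against 1.64 to 1.92 FPKM. These sums were 5.41 and 6.84 FPKM for monocytes and 1.03 and 19.6 FPKM for B cells in pre-AML 1 and pre-AML 2. Tyrobp alone gave 4.85 and 4.37 FPKM of these monocyte sums, and Cd68, C1qa and C1qb were at 0 in pre-AML 1. Of the monocyte and B cell markers, Cd14, Ly86, Ccr2 and Pax5 were listed at 0 in all controls. The same held for Cd3g, Cd2, Cd5 and Ncr1 of T and NK cells and for Mpo, Elane, Ly6g and Retnlg of neutrophils. Markers of T and NK cells summed to 19.1 to 28.6 FPKM among controls and 34.04 to 43.7 FPKM among pre-AML libraries. Among them, Nkg7 had 18.9 to 28.2 FPKM over all libraries. Gzma had 0 to 0.353 FPKM in control and 4.61 to 8.90 FPKM in pre-AML libraries. Every pre-AML library was above every control in 6 of these 10 markers, although Cd3g had only 0.0230 FPKM in pre-AML 1. The same held for 5 of 13 monocyte and macrophage markers (with Lyz2) and for 6.14% of all genes tested below. It held for 0 platelet, neutrophil and B cell markers and for 1 erythroid marker. Its share among genes too low to be tested was not counted. Neutrophil markers summed to 3.16 to 3.66 FPKM among controls and 1.46 to 4.998 FPKM among pre-AML libraries. The 5 of 8 erythroid markers in the table summed to 2350 to 2652 FPKM and 2377 to 2991 FPKM.

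The receptor transcripts spanned a wide range in control platelets, from P2ry12 at 1197 ± 138 FPKM (SD, n = 3) to Adra2a at 0.436 ± 0.1302 FPKM (SD, n = 3), a ratio of 2742. P2ry12, P2rx1 and F2rl2 together made up 95.4% of the summed FPKM of the 10 genes, and P2ry12 alone 53.1%. A higher control mean than that of P2ry12 was found for 51 genes, 103 were above P2rx1 and 118 above F2rl2. Next came P2ry1, F2r, F2rl3, Ptgir and Ptger3, between 41.7 and 7.11 FPKM, and then Tbxa2r and Adra2a below 1 FPKM. In this order most neighbours were apart in their control ranges, and the exceptions were P2rx1 and F2rl2, F2r and F2rl3, and Tbxa2r and Adra2a. P2rx1 was nevertheless above F2rl2 in 6 of 6 libraries, while F2r was above F2rl3 in 4 and Tbxa2r above Adra2a in 5. In the means of the pre-AML libraries 8 of the 10 receptors had the same rank, and F2r and F2rl3 changed places at 16.3 ± 4.18 and 16.6 ± 2.71 FPKM (SD, n = 3 each).

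**Figure D1:**
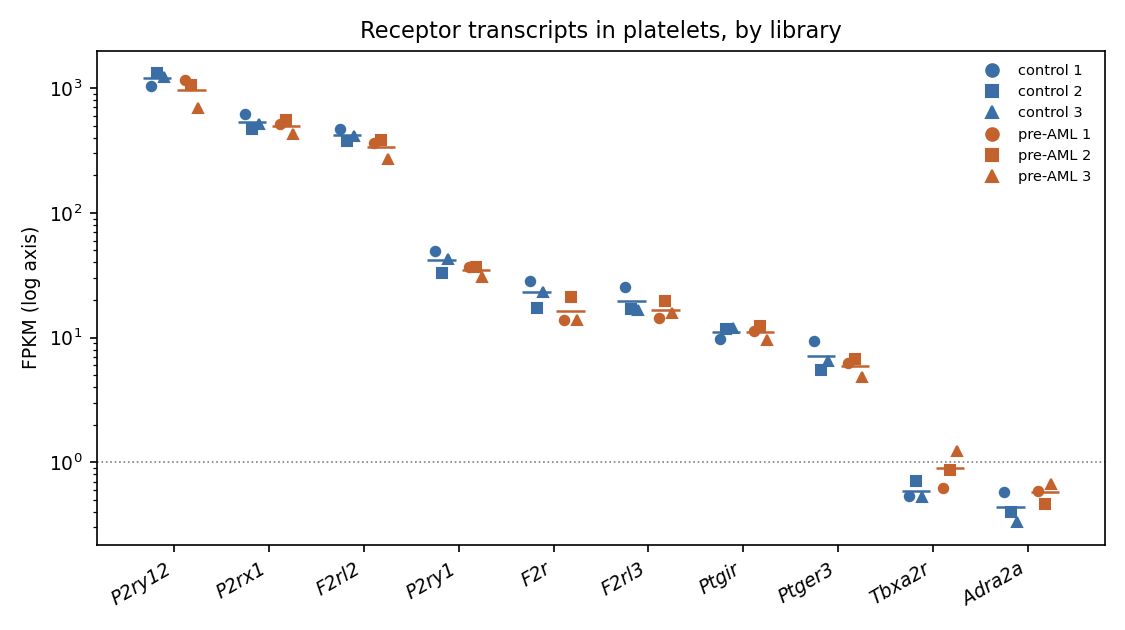
FPKM on a log axis for the 10 receptors, ordered by their control mean. Points are libraries (blue control, orange pre-AML, with a shape per library number), short lines are group means and the dotted line is 1 FPKM, the minimum mean for the test. P2ry12, P2rx1 and F2rl2 lie at 272.7 FPKM or above in every library and Tbxa2r and Adra2a near or below 1 FPKM.

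Of the thrombin receptors, F2rl2 (PAR3; Entrez gene 14064, chr13:95696853-95702739 on the plus strand) had 473, 374 and 414 FPKM in the controls, beside 362, 386 and 273 FPKM among the pre-AML libraries. The groups overlapped in pre-AML 2, which was above control 2, while pre-AML 1 and pre-AML 3 were below all controls. F2rl3 (PAR4; Entrez gene 14065, chr8:72761880-72763874 on the plus strand) had 25.3, 16.9 and 16.7 FPKM in the controls, beside 14.4, 19.6 and 15.6 FPKM among the pre-AML libraries. Control 1 was the highest library, and pre-AML 1 and pre-AML 3 were below all controls while pre-AML 2 was not. F2r (PAR1; Entrez gene 14062, chr13:95601803-95618487 on the minus strand) had 28.5, 17.3 and 23.4 FPKM in the controls, beside 13.9, 21.1 and 13.9 FPKM among the pre-AML libraries. Pre-AML 2 lay inside the control range and the other pre-AML libraries below it. F2r was thus above F2rl3 per kilobase in 4 of the 6 libraries, from 617 to 1117 reads on F2r and 336 to 639 on F2rl3. PAR3 held 90.9% ± 0.954 of the summed FPKM of the 3 thrombin receptors among controls and 91.1% ± 1.39 among pre-AML libraries (SD, n = 3 each).

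F2rl2 lies inside the span of Iqgap2, which is on the opposite strand, and shares 0 exon bases with it. Iqgap2 encodes a scaffold protein of the cytoskeleton and had a mean of 9.39 ± 2.26 FPKM among controls and of 7.05 ± 1.98 FPKM among pre-AML libraries (SD, n = 3 each), far below F2rl2.

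P2ry12 (Entrez gene 70839, chr3:59216272-59262871 on the minus strand) had 1047, 1318 and 1226 FPKM in the controls, beside 1165, 1066 and 687 FPKM among the pre-AML libraries. Pre-AML 1 and pre-AML 2 lay inside the control range and pre-AML 3 was the only library below it. It sits inside the span of Med12l, a gene of a Mediator subunit on the other strand that had a mean of 21.3 ± 2.64 FPKM among controls and of 23.0 ± 3.77 FPKM among pre-AML libraries (SD, n = 3 each), and the annotated exons of both share 9 bases. P2ry1 (Entrez gene 18441, chr3:61002795-61008982 on the plus strand) had 49.4, 32.9 and 42.8 FPKM in the controls, beside 36.6, 36.8 and 30.4 FPKM among the pre-AML libraries. Here too only pre-AML 3 left the control range. An antisense gene, Gm37035, shares 992 exon bases with P2ry1, and the library preparation does not keep the strand, so reads in these bases cannot be told apart. P2rx1 (Entrez gene 18436, chr11:72999103-73015200 on the plus strand) had 618, 467 and 517 FPKM in the controls, beside 514, 551 and 432 FPKM among the pre-AML libraries. Again pre-AML 3 was below all controls and the others lay within their range. The P2Y12 transcript was 21.2 to 40.1 times that of P2Y1 in control and 22.6 to 31.8 times in pre-AML libraries, and these ranges overlapped.

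Among the prostanoid receptors the inhibitory one was the highest. Ptgir (IP receptor; Entrez gene 19222, chr7:16906490-16910905 on the plus strand) had 9.68, 11.7 and 11.9 FPKM in the controls, beside 11.2, 12.5 and 9.58 FPKM among the pre-AML libraries. Its group means, 11.1 ± 1.24 and 11.1 ± 1.45 FPKM (SD, n = 3 each), differed least among the 10 receptors. Ptger3 (EP3; Entrez gene 19218, chr3:157566892-157645888 on the plus strand) had 9.36, 5.47 and 6.49 FPKM in the controls, beside 6.24, 6.76 and 4.82 FPKM among the pre-AML libraries. It was below Ptgir in all 6 libraries, although the values in control 1 were nearly the same.

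Tbxa2r, which encodes the thromboxane receptor (Entrez gene 21390, chr10:81328731-81335172 on the plus strand), was far below the other prostanoid receptors. It had 0.533, 0.704 and 0.526 FPKM in the controls, beside 0.627, 0.864 and 1.23 FPKM among the pre-AML libraries, from 12, 19, 12, 16, 25 and 55 reads. Its level was highest in pre-AML 3 and next in pre-AML 2, and pre-AML 1 lay within the control range. By contrast, the enzymes that make its ligand were abundant, with Ptgs1 (cyclooxygenase-1) at 185 ± 15.6 FPKM and Tbxas1 (thromboxane synthase) at 67.2 ± 5.57 FPKM in control (SD, n = 3 each). Adra2a (Entrez gene 11551, chr19:54044151-54048982 on the plus strand) had 0.582, 0.397 and 0.330 FPKM in the controls, beside 0.591, 0.466 and 0.665 FPKM among the pre-AML libraries, from 19 to 75 reads. Pre-AML 3 was again highest, and pre-AML 2 was below control 1. Both genes had a mean below 1 FPKM and were not tested in the main analysis. Without that filter Tbxa2r had a log2 fold change of 0.25 (95% interval -0.14 to 0.65) and Adra2a of 0.13 (-0.22 to 0.49), and adjusted p in limma-trend was 0.705 and 0.753. The summed markers of monocytes, B cells and T and NK cells were highest in the same library as both receptors, while those of neutrophils were lowest there, and the part of leukocyte RNA in these levels was not tested.

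**Figure D2:**
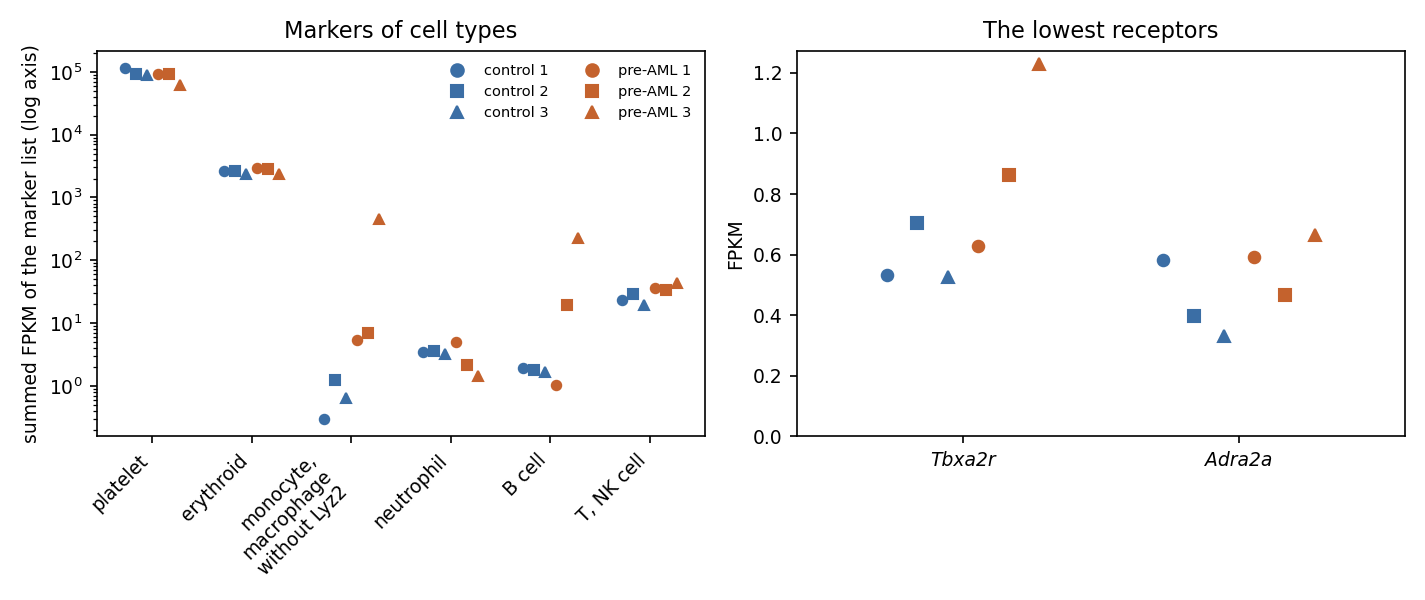
Left, summed FPKM of marker lists on a log axis, and right, FPKM of Tbxa2r and Adra2a on a linear axis from 0. Each point is a library. Pre-AML 3 is the highest library for monocyte and B cell markers (453 and 227 FPKM) and for both receptors (1.23 and 0.665 FPKM), and the lowest for platelet markers.

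To ask whether the receptors differed between pre-AML and control platelets, log2(FPKM + 1) was compared with limma-trend over the 4412 genes whose mean reached 1 FPKM, with Benjamini-Hochberg adjustment over all of them. A difference on this scale understates that of low genes. The 8 receptors tested were F2r, F2rl2, F2rl3, P2ry1, P2ry12, P2rx1, Ptger3 and Ptgir, and 0 of them passed an adjusted p of 0.05, where 1 of all tested genes did (0.0227%). At an unadjusted p under 0.05 there were also 0 of 8 from limma-trend, while 6.53% of all tested genes were lower and 2.56% higher in pre-AML platelets. From limma-voom there were 0 of 8 as well, beside 340 lower and 89 higher genes of the 4412. In limma-trend the background split by direction turned with the scaling, from 113 higher and 288 lower genes as deposited to 272 and 236 with libraries scaled to their recovered reads. In 0 of 8 receptors were all pre-AML libraries below all controls, as in 12.8% of tested genes, and in 0 of 8 were they all above, as in 6.14%.

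The largest difference was that of F2r, with a log2 fold change of -0.48 (standard error 0.23, 95% interval -0.99 to 0.04, adjusted p = 0.522 from limma-trend). P2ry12 and F2rl2 had log2 fold changes of -0.33 (95% interval -0.81 to 0.15) and -0.31 (-0.70 to 0.08). The intervals of P2ry1, F2rl3 and Ptger3, around -0.25, -0.22 and -0.21, also included 0. Single libraries moved these values by over 1.5 times. Without control 1, P2ry1 was at -0.12, F2rl3 at -0.03, Ptger3 at -0.01 and F2r at -0.31. Without pre-AML 3, P2ry12 was at -0.10 and F2rl2 at -0.16. Other omissions moved them away from 0. Without control 2, P2ry1 was at -0.40, Ptger3 at -0.35 and F2r at -0.66. Without pre-AML 2, F2rl3 was at -0.34, F2rl2 at -0.41 and F2r at -0.67, and without pre-AML 1, P2ry12 was at -0.48. P2rx1 was at -0.10 (-0.46 to 0.27) and Ptgir at -0.01 (-0.35 to 0.34). On this scale the intervals leave room for changes down to 0.503 times the control level for F2r, and for Ptgir they run from 0.785 to 1.26 times. The adjusted p of the 8 receptors was between 0.522 and 0.992 from limma-trend. Neither host gene was called. Med12l was at 0.10 and Iqgap2 at -0.38 on the log2 scale (limma-trend, adjusted p = 0.819 and 0.539). The groups of Med12l overlapped as deposited. Scaled to recovered reads, its pre-AML libraries (lowest 23.8 FPKM) were all above the controls (highest 22.7 FPKM). The share of all tested genes that did so with this scaling was not counted.

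**Figure D3:**
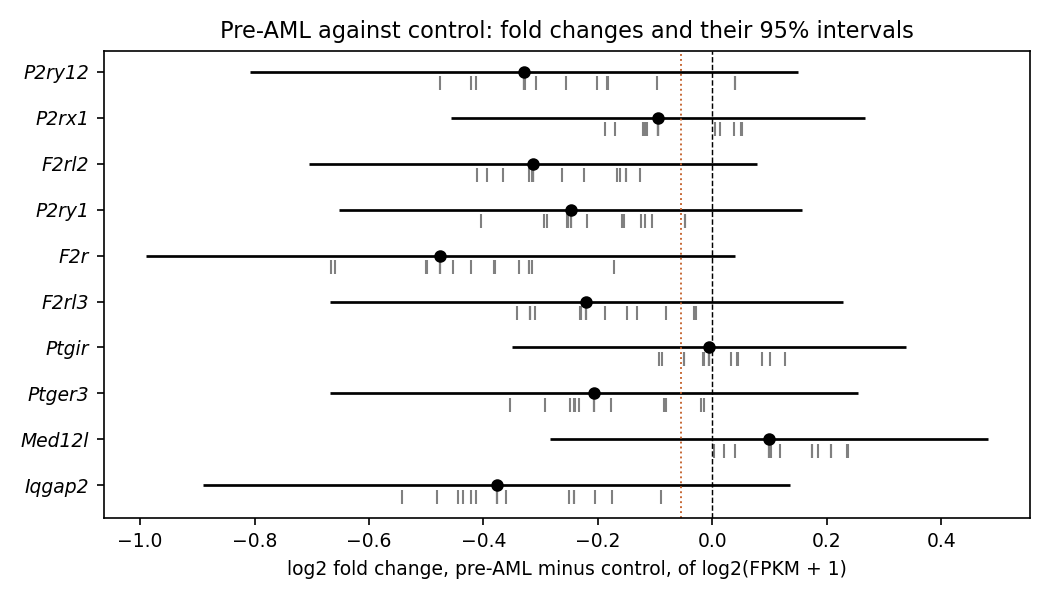
Log2 fold changes of the 8 tested receptors and the genes Med12l and Iqgap2 (points), with 95% intervals from limma-trend (lines). Grey ticks are the values under 16 alternative settings, the dashed line is 0 and the dotted line the median of all tested genes (-0.06). Every interval includes 0.

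All 8 tested receptors had a log2 fold change below 0, with a median of -0.23, against 58.5% of all tested genes below 0 and a median of -0.06. Pre-AML 3 was below every control in 8 of 8 receptors and the lowest of the 6 libraries in 7, all but F2rl3. Over all tested genes the median log2 ratio of pre-AML 3 to the control mean, on FPKM + 1, was -0.17. Scaled to recovered reads, pre-AML 3 was below every control in 2 of 8 (F2rl2 and P2ry12) and lowest in 1 (P2ry12). The median ratio over all tested genes was then 0.18 in pre-AML 3. With that scaling 6 of 8 receptors were below 0, against 40.8% of all tested genes, with P2rx1 at 0.05 and Ptgir at 0.13. The median fold change of the receptors was -0.09, while that of all tested genes moved from -0.06 to 0.06. Without pre-AML 3 also 6 of 8 were below 0, against 53.6% of all tested genes, and the median was -0.13. Control 1 was the highest library in 6 of 8 receptors under both scalings. The shares of all tested genes with these places of pre-AML 3 and control 1 were not counted. These places can therefore not be called particular to the receptors. Without control 1 the median was -0.11 and 7 of 8 were below 0, against 57.5% of all tested genes.

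**Figure D4:**
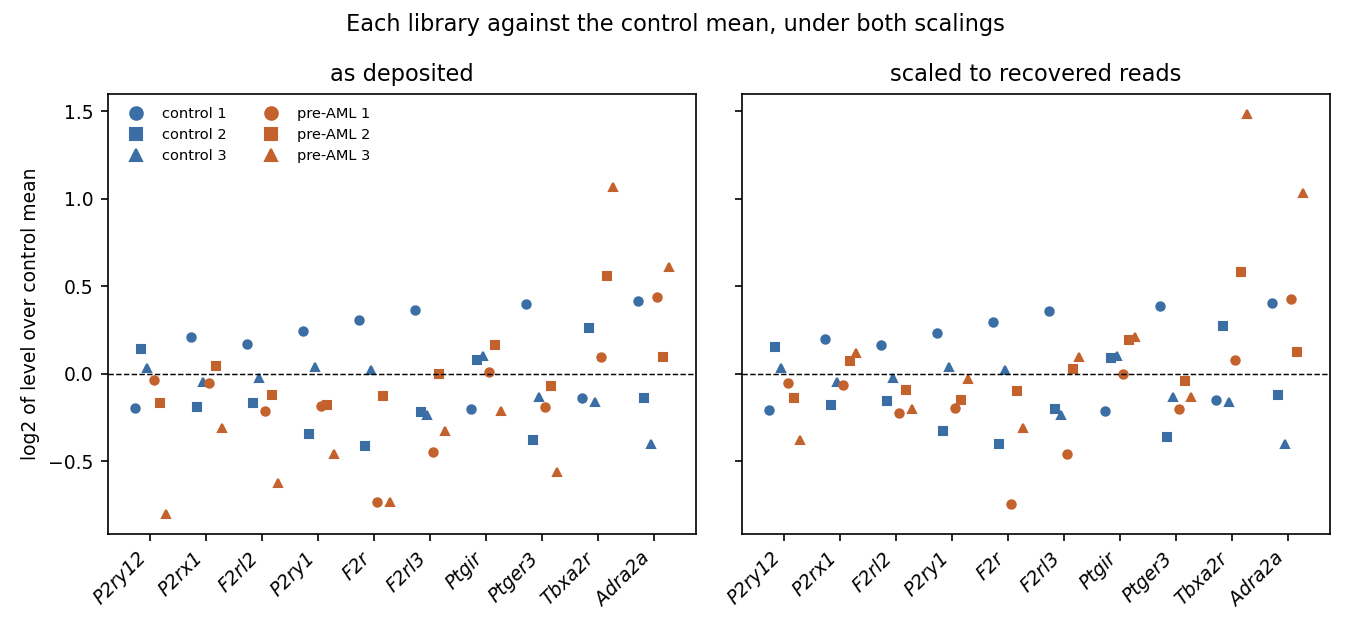
Log2 ratio of each library to the control mean for the 10 receptors, with values as deposited (left) and scaled to recovered reads (right). Points are libraries and the dashed line is the control mean. As deposited, pre-AML 3 lies below all controls for the 8 tested receptors, and after scaling for 2 of them. The shares of all tested genes were not counted. Tbxa2r and Adra2a are highest in pre-AML 3 in both panels.

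The values also followed base composition. Across the 4397 tested genes with a GC content, which are not independent, the Spearman correlation of GC content with a library's deviation from the gene's mean was -0.30, -0.40 and -0.31 among the controls and -0.05, 0.31 and 0.49 among the pre-AML libraries. The receptor transcripts ran from 38.6% GC for P2ry12 to 62.5% for Tbxa2r, beside a median of 49.8% over tested genes. With each library's trend with gene length and GC content removed, P2ry12 was at 0.04, F2r at -0.32 and F2rl2 at -0.15. Then 7 of 8 receptors stayed below 0, against 47.5% of all tested genes.

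Ratios within a library do not depend on its scaling, and 4 were compared. They can still carry the library's trend with GC content, which was not removed from them. Tbxa2r had 62.5% GC and Ptgir 54.5%, and the part of this trend in their ratio was not tested. The ratio of F2rl2 to F2rl3 was 18.7, 22.1 and 24.8 among the controls, beside 25.1, 19.7 and 17.4 among the pre-AML libraries (p = 0.8 in a two-sided exact permutation test of the log2 ratio, where 0.1 is the smallest p that 3 against 3 allow). The log2 ratio of P2ry12 to P2ry1 was 4.86 ± 0.46 among controls and 4.78 ± 0.25 among pre-AML libraries (SD, n = 3 each; exact permutation p = 1). Ptger3 was 0.967, 0.466 and 0.544 times Ptgir among the controls, beside 0.557, 0.542 and 0.504 times among the pre-AML libraries (exact permutation p = 0.8). The ratio of Tbxa2r to Ptgir was 0.0550, 0.0599 and 0.0441 among the controls, beside 0.0559, 0.0693 and 0.128 among the pre-AML libraries, so the groups overlapped and pre-AML 3 stood apart (exact permutation p = 0.2). The difference of 0.59 in this log2 ratio was 0.24 without pre-AML 3. Adjusted over the 4 ratios, the exact permutation p was 0.8 for the last and 1 for the others.

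**Figure D5:**
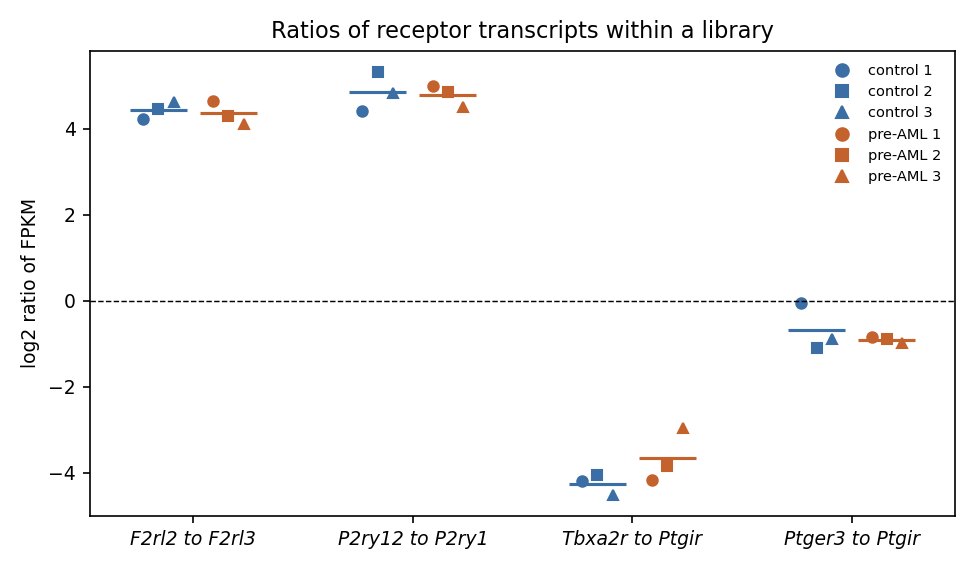
Log2 ratio of FPKM of 2 receptors within each library, with points for libraries and short lines for group means. The groups overlap in all 4 ratios, and Tbxa2r to Ptgir is highest in pre-AML 3 (a ratio of 0.128).

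Other receptors for soluble agonists and inhibitors were rare in these libraries. Of 26 listed genes 22 were in the table, and P2ry13, a further ADP receptor, was the only one with a mean of at least 1 FPKM, at 2.08 ± 0.444 FPKM among controls and 1.53 ± 0.419 FPKM among pre-AML libraries (SD, n = 3 each; log2 fold change -0.29, adjusted p = 0.573 from limma-trend). Of the 22, 17 were above every control in pre-AML 3, 6 in pre-AML 1 and 7 in pre-AML 2, where the shares of all genes with a mean below 1 FPKM were 50.7%, 24.2% and 27.6%, and those of all 14975 genes were 42.6%, 23.5% and 26.2%. Low genes of the table as a whole were thus also above every control most often in pre-AML 3. Of the 22 receptors, 8 were at 1 FPKM or more only in pre-AML 3. The share of all low genes with this pattern was not counted, so whether it is particular to receptors cannot be told from the 8. Lpar5, a receptor for lysophosphatidic acid, was listed at 0 in all controls and pre-AML 1 and had 0.0875 and 3.39 FPKM in pre-AML 2 and pre-AML 3, from 2 and 120 reads, while 3 reads in a control correspond to 0.141 to 0.169 FPKM. It was named after its values were seen. P2ry6, Ptger1 and Ptger2 were also at 0 in all controls and stayed under 0.5 FPKM elsewhere. The part of the leukocyte RNA in these levels was not tested.

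The pathway behind the receptors was taken from lists of G proteins, effectors and regulators. Together with the other receptors they held 106 genes, of which 101 were in the table and 55 were tested, and 0 passed an adjusted p of 0.05 in limma-trend. At an unadjusted p under 0.05, 1 was higher and 3 were lower, near the shares of 2.56% and 6.53% over all tested genes, and the median log2 fold change of the 55 was -0.11 against -0.06 over all. Of the 55, 3 (Gng10, Arhgef1 and Rgs19) reached 1 FPKM in pre-AML 3 alone and passed the filter through that library, so they had to be higher there. Where groups of genes named below did not overlap, 12.8% of all tested genes had all pre-AML libraries below the controls and 6.14% above. Beside the counts below 0 in each list, the share over all tested genes was 58.5%. The G protein subunit Gng11 was exceeded in control mean by 5 genes, with 17367 ± 1496 FPKM among controls and 13224 ± 4069 FPKM among pre-AML libraries, and Gnas, the subunit that IP uses to raise cAMP, had 475 ± 36.9 and 465 ± 85.5 FPKM (SD, n = 3 each). In all, 6 of 14 tested G protein genes were above 0 and 8 below, with Gng12 at -0.36, Gng11 at -0.44 and Gnas at -0.04 on the log2 scale. Gng10, counted among the 6, had 0.513, 0.299 and 0.657 FPKM in the controls, beside 0.904, 0.838 and 5.42 FPKM among the pre-AML libraries.

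Downstream of Gq and G13, 10 of 13 tested genes were below 0. The 13 include Arhgef1, which passed the filter through pre-AML 3 alone. Rap1b, the small GTPase that drives integrin activation, had 484, 565 and 538 FPKM in the controls, beside 470, 404 and 242 FPKM among the pre-AML libraries. All its pre-AML libraries were below the controls, but the difference of -0.56 on the log2 scale did not pass (limma-trend, adjusted p = 0.522). Leaving out pre-AML 3 gave -0.28, and removal of the length and GC trend gave -0.23. Rasgrp2, the exchange factor that loads Rap1b, had 115 ± 5.49 FPKM among controls and 124 ± 15.1 FPKM among pre-AML libraries (SD, n = 3 each; log2 fold change 0.10) and Plcb1, a phospholipase that Gq activates, was at -0.39. On the Gi side 1 of 4 tested genes was above 0 and 3 below, with Rasa3, a brake on Rap1 that P2Y12 signaling releases, at -0.12 and the kinase gene Akt2 at 0.10 on the log2 scale.

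In the cAMP and cGMP pathway 9 of 12 tested genes were below 0. Prkar2b, a regulatory subunit of protein kinase A, had 184, 193 and 214 FPKM in the controls, beside 162, 153 and 98.7 FPKM among the pre-AML libraries, or -0.54 on the log2 scale (limma-trend, adjusted p = 0.522), -0.32 without pre-AML 3 and -0.33 with the length and GC trend removed. Its groups did not overlap, and the same held for Prkar1a at -0.31 and Pde5a at -0.41, which were at -0.15 and -0.23 without pre-AML 3. Among regulators of receptor signaling, 4 of 8 tested genes were above 0. The 8 include Rgs19, which passed the filter through pre-AML 3 alone. Rgs18, which shortens Gq and Gi signals, had 1153, 1343 and 1310 FPKM in the controls, beside 1147, 923 and 499 FPKM among the pre-AML libraries. All pre-AML libraries were below the controls, pre-AML 1 only just, and the log2 fold change was -0.65 (limma-trend, adjusted p = 0.522), or -0.30 without pre-AML 3 and -0.13 with the length and GC trend removed. Arrb2, an arrestin that binds active receptors, had 20.9 ± 1.11 FPKM among controls and 26.7 ± 2.52 FPKM among pre-AML libraries (SD, n = 3 each), with all pre-AML libraries above the controls, and was 0.34 higher on the log2 scale with the same adjusted p of 0.522 (limma-trend). Rgs10 was at -0.15. Of the genes that supply ligands, 3 of 3 tested were below 0, with Ptgs1 at -0.06, Tbxas1 at -0.15 and Pla2g4a, the phospholipase that frees arachidonic acid, at -0.35 on the log2 scale.

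The mean log2(FPKM + 1) of the 8 tested receptors was 6.28, 5.95 and 6.10 among the controls, beside 5.91, 6.07 and 5.64 among the pre-AML libraries. Over the 6 libraries, Xaf1, Mdh1 and Dctn6 had the pattern most like it, with Pearson correlations of 0.994, 0.994 and 0.989, and 201 of 4404 other tested genes were above 0.9. All of these points share the libraries and their scaling.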

How the data were processed

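Platelets were purified by depletion of CD45+ and Ter119+ cells, and cDNA was amplified by SMART-Seq2 and tagged by Nextera XT, which keep no strand. The authors mapped reads to mm10 with STAR (2.5.2b) and compared groups with DESeq2 (1.12.4). Their counting program and annotation are not given in the sources used here. The authors deposited FPKM values for 14975 genes. Whole reads (tolerance 0.01) and lengths were computed from the steps of these values, with GENCODE M21 on GRCm38, the assembly of mm10, setting the scale. Reads of genes above 0 in 1 library alone were rounded from the GENCODE length, without that tolerance. The rule by which the divisors had been set was not tested.

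Groups were compared by limma-trend on log2(FPKM + 1) (limma 3.58.1, R 4.3.3, no covariates), keeping a mean of 1 FPKM or more. Within-library ratios were compared by exact permutation tests (scipy 1.17.1). Versions of Python, numpy and pandas were 3.11.15, 2.4.6 and 2.3.3. Both the fit and the recovery were checked on simulated data. The receptors and lists were chosen with earlier results of these data known. Named were all receptors, both host genes, the 2 highest genes and the 2 with the smallest p among the tested ones of each list, and the 3 genes most like the receptors. Older symbols of 4 listed genes were matched through RefSeq. Alternatives were a pseudocount of 0.1, no filter, 10 recovered reads per library, the replicate number as a block, scaling to recovered reads, quantile normalization, loess removal of length and GC trends, limma-voom, array weights and leaving out each library. All value columns were mapped to samples.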

Additional observations from a re-analysis of the deposited data

How the results depend on the processing

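No receptor passed an adjusted p of 0.05 under any of the 16 alternatives. The 8 tested receptors gave 128 values, of which 115 kept the direction and 13 turned, with adjusted p of 0.348 to 0.996 from limma. Of these values, 4 had an unadjusted p under 0.05 from limma, 3 of F2r and 1 of F2rl2. With the length and GC trend removed, with or without the replicate block, P2ry12 was at 0.0395. Scaled to recovered reads, P2rx1, Ptgir, Gnas, Rasa3 and Ptgs1 were at 0.050004, 0.127, 0.102, 0.0193 and 0.0841. Quantile normalization gave 0.0375, 0.0450, 0.0498 and 0.0347 for P2rx1, Ptgir, Gnas and Ptgs1, and array weights gave 0.0521, 0.10005, 0.116, 0.00372 and 0.0421 for P2rx1, Ptgir, Gnas, Rasa3 and Ptgs1. Leaving out each library gave -0.187 to 0.0137 for P2rx1, -0.0940 to 0.0866 for Ptgir, -0.151 to 0.114 for Gnas, -0.264 to 0.00559 for Rgs10 and -0.132 to 0.0433 for Ptgs1. It gave log2 ratio differences of -0.228 to 0.0352 for F2rl2 to F2rl3, -0.301 to 0.159 for P2ry12 to P2ry1 and -0.442 to 0.0840 for Ptger3 to Ptgir, while Tbxa2r to Ptgir was at 0.244 to 0.843, lowest without pre-AML 3, and at 0.260 with a pseudocount of 1 FPKM (exact permutation p = 0.5). The cause of these turns was not tested. Over all genes 1 was called higher, and 1 with the replicate block. Deviations of same-numbered libraries from their group means had correlations of -0.04, -0.12 and -0.17. Since these deviations were taken within groups of 3, this cannot tell whether the numbers mark pairs. The count was 0 with no filter, with 10 reads per library, scaled to recovered reads, with the length and GC trend removed (also with the block) and with limma-voom, 2 with array weights and 0 to 2 when a library was left out. It was 0 without control 1 or control 3 and 2 without pre-AML 3. Depth limits Tbxa2r and Adra2a, which rest on 12 to 75 reads per library.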
